A study of Mus musculus with 4 samples.

Results

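Nuclei carrying transcripts of Drd1-type striatal projection neurons made up 440 of the 35694 nuclei sequenced from the cerebral cortex of control and creatine transporter knockout (CrT-KO) mice. Members were selected on their own counts of unique molecular identifiers (UMIs, counted RNA molecules) per nucleus. A nucleus needed at least 1 UMI of Gad1 or Gad2, none of Slc17a7, at least 2 of Rarb and at least 2 in all of Drd1, Tac1 and Ebf1. It also had to have no UMI of Drd2, Adora2a or Drd3. These 10 genes therefore describe the selection and are not results. The study measured nuclear RNA by droplet sequencing of the right cerebral cortex, dissected away from the tissue underneath and with nuclei purified by flow cytometry. There were 2 control libraries (CrT+/y) and 2 CrT-KO libraries (CrT-/y), each from 1 adult male on a pure C57Bl/6J background, with littermates as controls. The CrT-KO males are hemizygous for a deletion within Slc6a8, the X-linked gene of the creatine transporter, in every cell of the body. An effect on these nuclei therefore cannot be told apart from an effect of other cells or organs. The gate held 106 and 110 nuclei in control replicates 1 and 2, and 108 and 116 in CrT-KO replicates 1 and 2.

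Projection neurons of the striatum are GABAergic cells that receive glutamate from cortex and dopamine from the midbrain. One class carries the D1 receptor (Drd1) and the peptides substance P (from Tac1) and dynorphin (from Pdyn), and projects mainly to the output nuclei of the basal ganglia. The other class carries the D2 receptor (Drd2), the adenosine receptor Adora2a and enkephalin (from Penk). D1 receptors raise cAMP through the G protein subunit Gnal and the cyclase Adcy5, and D2 receptors lower it. Creatine buffers ATP in neurons, and Slc6a8 carries it into the cell.

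The label was checked against genes that the gate did not use. Levels are given as CPM, that is UMIs of a gene per 1000000 UMIs of a population in 1 library. Rgs9, a regulator of G protein signalling concentrated in striatum, stood at 799 and 806 CPM in the control libraries and 880 and 825 in the CrT-KO libraries, and 92.0% of the 440 nuclei had at least 1 UMI of it. The gate was set beside all 7415 GABAergic nuclei, the members included, and beside the 3375 of these with no UMI of Rarb, Drd1, Tac1, Ebf1, Drd2, Adora2a or Drd3, called other GABAergic nuclei below. That second group was itself selected to lack the striatal gate genes. Over the 4 libraries together, Rgs9 stood at 828 CPM in the gate, 246 CPM in all GABAergic nuclei and 33.6 CPM in the other GABAergic nuclei. The phosphodiesterase Pde10a stood at 4946, 2424 and 1695 CPM in the same order, the cyclase Adcy5 at 756, 234 and 50.7, and the transcription factor Foxp1 at 1491, 552 and 177. Ppp1r1b, the cAMP-regulated phosphatase inhibitor DARPP, stood at 46.6, 12.2 and 1.40 CPM. Of these 3 groups, the gate was the highest for each gene. Nuclei of a mirror-image gate for the Drd2 class, called Drd2-gated below, had similar or higher levels of most of them. Their Rgs9 stood at 849 CPM, Pde10a at 5245, Adcy5 at 745, Foxp1 at 1929 and Ppp1r1b at 40.8. These genes therefore mark striatal projection neurons and do not single out the Drd1 class. The tissue label gives cortex, so these nuclei carry the transcripts of a cell class of the underlying striatum. Their position in the tissue was not recorded in the files.

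**Figure D1:**
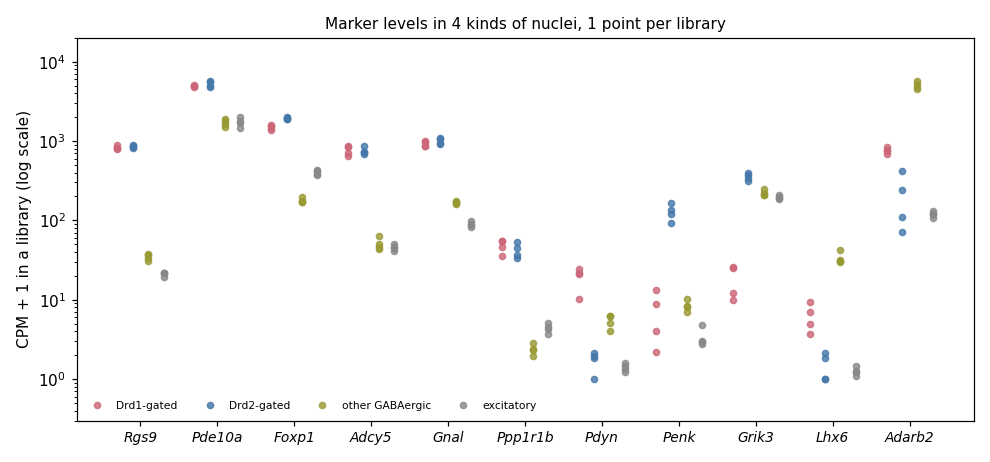
Level of 11 marker genes that the gate did not use (CPM plus 1, log axis) in Drd1-gated nuclei, Drd2-gated nuclei, other GABAergic nuclei and excitatory nuclei, with 1 point per library. Rgs9 stood at 799 to 880 CPM in every library of the Drd1 gate and at 33.6 CPM over the other GABAergic nuclei, which were selected to lack the striatal gate genes.

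The class within the striatum also showed in genes outside the gate. Isl1, a transcription factor of Drd1 neurons, stood at 15.2, 10.3, 16.5 and 16.6 CPM in control replicates 1 and 2 and CrT-KO replicates 1 and 2, in that order, which is kept below. Pdyn stood at 9.1, 23.2, 20.6 and 20.2 CPM. Penk, the enkephalin precursor of the Drd2 class, was found in 3.41% of Drd1-gated nuclei and in 46.0% of nuclei of the mirror-image gate for the Drd2 class (619 nuclei). Of the other genes of the Drd1-type list, Chrm4 with 1 UMI and Slc35d3 with 4 in all 440 nuclei were too scarce to serve. The 6 genes of that list together summed to 98.8, 96.8, 113 and 106 CPM in the gate. That sum was 16.2 to 21.3 CPM in Drd2-gated nuclei and 66.2 to 83.9 CPM in other GABAergic nuclei. The list therefore set the gate apart from the Drd2 class more than from other GABAergic nuclei. Of 6 excitatory markers, Slc17a7 was at 0 by the gate, and Neurod6 and Tbr1 had no UMI, which allows up to 0.682% of nuclei with one, counting error only. The list, through its other members, summed to 63.8, 37.4, 31.6 and 28.5 CPM in the gate, against 743 to 858 CPM in excitatory nuclei. Adarb2, which marks cortical interneurons of caudal origin, stood at 758 CPM, below the 3017 CPM of all GABAergic nuclei and the 5072 CPM of the other GABAergic nuclei, and above the 218 CPM of Drd2-gated nuclei.

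Genes of the patch and matrix lists were found, but neither list set the gate apart from every other kind of nuclei. The patch list summed to 307 to 411 CPM in the gate and 549 to 605 CPM in other GABAergic nuclei. Matrix genes summed to 1437 to 1615 CPM in the gate, 1428 to 1523 in Drd2-gated and 1287 to 1384 in excitatory nuclei. In other GABAergic nuclei they summed to 579 to 636 CPM. The eccentric list summed to 103 to 151 CPM in the gate and 129 to 163 CPM in other GABAergic nuclei. The matrix genes Cdh8, a cadherin, at 934, 808, 827 and 771 CPM, and Epha4, an ephrin receptor, at 366, 378, 353 and 334 CPM were found in every library. Of the patch list, Oprm1 stood at 41.0, 27.1, 37.0 and 42.8 CPM and Kremen1 at 24.3, 34.9, 11.0 and 20.2 CPM. The eccentric-neuron genes Otof and Casz1 stood at 36.8 to 67.1 and 6.46 to 13.1 CPM. Of the ventral striatal genes, Crym stood at 28.5 to 50.8 CPM and Wfs1 at 14.3 to 31.6 CPM, while the neurotensin gene Nts had 10 UMIs in all. The genotypes overlapped for Cdh8, Oprm1, Crym, Wfs1 and Nts. Epha4, Kremen1 and Otof were below both controls in both CrT-KO libraries, and Casz1 was above both. Such a lack of overlap was found for 33.4% of all genes tested between genotypes, so it is a description only. None of the patch, matrix, eccentric or ventral genes tested between genotypes was called.

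Members reached the gate by different genes. Drd1 itself was found in 156 nuclei (35.5%), Tac1 in 125 (28.4%) and Ebf1 in 383 (87.0%), while 201 nuclei (45.7%) entered on Ebf1 alone. A UMI of Drd1 or Tac1 was found in 239 nuclei (54.3%), and all of Drd1, Tac1 and Ebf1 in 20 (4.55%). Ebf1 is a transcription factor of developing Drd1 neurons, and most of the membership rests on it. At the edge of the gate, the 131 members with a summed Drd1, Tac1 and Ebf1 count of exactly 2 had 742 CPM of Rgs9, and the 237 nuclei outside it with a count of 1 had 460 CPM. The 7 members with 2 UMIs of Rarb had 39.0 CPM of Rgs9, and the 17 nuclei outside with 1 UMI had 76.5 CPM. Rarb, a retinoic acid receptor, was otherwise far from its threshold, with a median of 15 UMIs per member and a range from 2 to 54. A further 99 nuclei met every condition but had a UMI of Drd3, and their Rgs9 stood at 714 CPM.

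The 440 nuclei fell into 9 sub-clusters, numbered here and described by their leading genes. No test was made, since the leading genes could themselves have shaped the clusters. The 10 gate genes were left out of the clustering. Sub-cluster 1 (102 nuclei) was led by the synaptic adhesion gene Il1rapl2, the orphan receptor Gpr139 and the cannabinoid receptor Cnr1, with Rgs9 at 1140 CPM. Sub-cluster 2 (80 nuclei) was led by Stxbp6, Cdh4 and Trpm3, and it also held Calb1, the calbindin gene, at 115 CPM against 39.5 in the rest. Sub-cluster 3 (24 nuclei) carried the patch genes Kremen1 at 173 CPM, Sema5b at 280 CPM and the mu opioid receptor Oprm1 at 133 CPM. Kremen1 was highest there of all sub-clusters, while Sema5b (793 CPM) was higher in sub-cluster 4 and Oprm1 (184 CPM) in sub-cluster 8. Tac1 stood at 120 CPM in sub-cluster 3 and 198 CPM in sub-cluster 4, but it is a gate gene and describes the selection. Patches, or striosomes, are the islands of striatum rich in opioid receptors. Sub-cluster 4 (14 nuclei) carried genes of the so-called eccentric projection neurons, with Casz1 at 208 CPM, Otof at 327 CPM and Foxp2 at 3695 CPM. It also had the highest Adarb2 of the sub-clusters, at 4815 CPM, with Erbb4 at 3151 CPM, both genes of cortical interneurons. Ebf1 stood at 9.91 CPM there (1 UMI), so nearly all its nuclei entered on Drd1 or Tac1. The levels of Drd1 and Tac1 there follow in part from the gate. Sub-cluster 5 (52 nuclei) was led by Impg1, Vcan and Slco5a1, and sub-cluster 6 (81 nuclei) by Sulf1, the serotonin receptor Htr4 and Gfra1, with Rgs9 at 1023 and 906 CPM.

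Not every sub-cluster carried the striatal genes at the same level. Sub-cluster 7 (44 nuclei) was led by genes of cortical interneurons, among them the voltage-gated channel Kcnc2 at 1201 CPM, Nxph1 at 865 CPM and Sox6 at 472 CPM, with Rgs9 at 340 CPM. Its median was 9108 UMIs per nucleus, against 6474.5 in the gate, and it held 17 of the 25 members that Scrublet, which scores likely doublets (2 nuclei under 1 barcode), marked. Sub-clusters 8 (30 nuclei) and 9 (13 nuclei) had Rgs9 at 119 and 232 CPM. The libraries gave 30.2%, 23.6%, 17.6% and 21.6% of their members to sub-cluster 1, so both control shares exceeded both CrT-KO shares. They gave 11.3%, 6.36%, 9.26% and 12.9% to sub-cluster 7, where the genotypes overlapped. Sub-cluster 4 took 1.89%, 2.73%, 3.70% and 4.31% (2, 3, 4 and 5 nuclei), higher in both CrT-KO libraries. Sub-cluster 9 held 0, 2, 3 and 8 nuclei, also higher in both. Results that rest on sub-clusters 1 or 7 are given below with and without them.

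**Figure D2:**
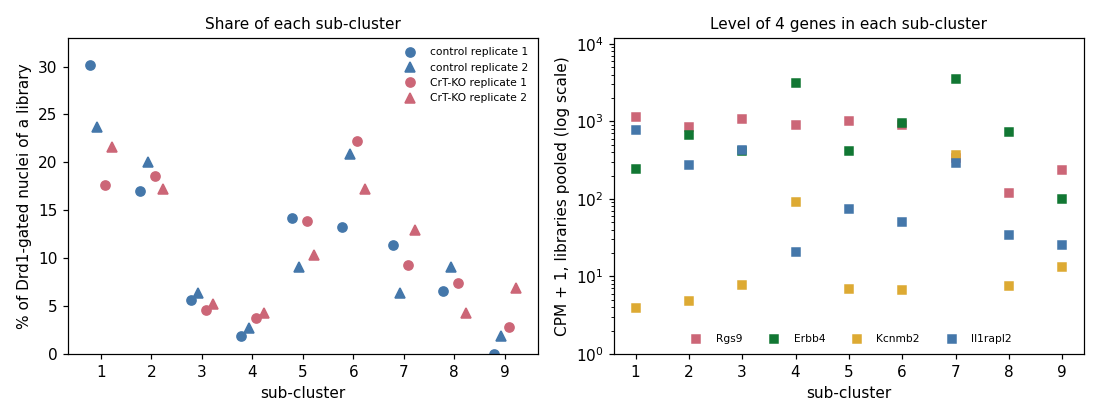
Left, share of each library's Drd1-gated nuclei (percent) in each of the 9 sub-clusters. Right, pooled level of Rgs9, Erbb4, Kcnmb2 and Il1rapl2 in each sub-cluster (CPM plus 1, log axis). Kcnmb2 peaks at 363 CPM in sub-cluster 7, and Il1rapl2 is highest in sub-cluster 1. Each is a leading gene of that sub-cluster and could have shaped it.

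Depth in the gate was lowest in control replicate 1. The gate summed 658203, 774526, 728777 and 841362 UMIs, with medians of 5910.5, 6620.5, 6576 and 6628 per nucleus, and no genotype difference in the median was detectable (exact permutation test, two-sided p = 0.67). With 2 libraries against 2 that test cannot go below 0.33. Barcodes shared between any pair of libraries numbered 12 to 19. Slc6a8 was too scarce in the gate to check the genotype, with 2, 3, 1 and 2 UMIs and 8 positive nuclei of 440 (1.82%). In excitatory nuclei of the same libraries it stood at 7.37, 5.74, 1.61 and 1.62 CPM, lower in both CrT-KO libraries (log2 fold change -1.97 ± 0.207 SE, adjusted p = 0.00179 by edgeR's quasi-likelihood test). The counts cover the whole gene body, so reads from outside the deleted part still count.

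The share of Drd1-gated nuclei did not differ detectably between the genotypes. They made up 1.28%, 1.18%, 1.17% and 1.31% of all nuclei, with exact Clopper-Pearson 95% intervals of 1.05 to 1.55, 0.974 to 1.42, 0.957 to 1.40 and 1.08 to 1.57%. The CrT-KO mean was 0.00646 percentage points above the control mean (exact permutation test, two-sided p = 1.0). These intervals cover counting error only. With each nucleus thinned to 3000 UMIs, the shares were 0.970%, 0.792%, 0.668% and 0.714%, with shallower nuclei left out (2200, 2731, 2236 and 2546). Both CrT-KO shares then lay below both control shares (exact permutation test, p = 0.33, the smallest possible). Of Drd1-gated and Drd2-gated nuclei together, the Drd1 gate held 38.3%, 39.7%, 39.7% and 49.8%, and the 49.8% of CrT-KO replicate 2 came with 117 Drd2-gated nuclei against 164 to 171 in the other libraries. Dissection, sorting and gate sensitivity all enter these shares, and their part was not tested.

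The question of the genotype comparison was which transcripts differ in these nuclei when the creatine transporter is lost. In Drd1-gated nuclei, 15 genes changed. Among the 8 that were higher in CrT-KO were the postsynaptic adhesion gene Lrrtm4, the calcium-activated chloride channel Ano2 and the sarcoglycan Sgcd. Among the 7 that were lower were the synaptic adhesion gene Il1rapl2, the zinc finger transcription factor St18 and Reln, which encodes the secreted protein reelin. UMIs were summed per library and tested with edgeR's quasi-likelihood test, and a gene was called at an adjusted p under 0.1 (Benjamini-Hochberg over all 6466 genes tested). The 15 calls were 0.232% of the genes tested, with 0.124% higher and 0.108% lower in CrT-KO. At an unadjusted p under 0.05 there were 373 genes. The median log2 fold change of all genes tested was -0.00137. Libraries of the genotypes did not overlap for 33.4% of all genes tested (16.3% higher and 17.1% lower in CrT-KO), so that the lack of overlap given for called genes below is a description. Below, levels in this test are CPM scaled by TMM factors, which correct for composition, and fold changes are log2 of CrT-KO over control with their SE.

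The 15 calls depended on single animals. Leaving out control replicate 1 gave 9 called genes, 2 of them among the 15. Leaving out control replicate 2 gave 23 calls with 10 of the 15, CrT-KO replicate 1 gave 25 with 8 of the 15, and CrT-KO replicate 2 gave 8 with 4 of the 15. None of the 15 was called in all 4 of these fits, and none changed its direction. DESeq2 called 0 genes at the same threshold, with 62 at an unadjusted p under 0.05.

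Ano2 was higher in CrT-KO over the gate as a whole. Its scaled level was 76.2, 116, 187 and 170 CPM, so the genotypes did not overlap, and its log2 fold change was 0.88 ± 0.195 (adjusted p = 0.0408). Its reads were spread over many nuclei: 34, 45, 63 and 61 nuclei had a UMI, and no nucleus had more than 8. Within sub-cluster 7 its plain level was 17.5, 137, 13.3 and 74.8 CPM, on 2, 10, 1 and 14 UMIs, and the genotypes overlapped. Outside sub-cluster 7 its plain level was 90.1, 111, 208 and 196 CPM, and without that sub-cluster the change was 0.99 (adjusted p = 0.00845). Without sub-cluster 1 it was 0.63 (adjusted p = 0.753). Ano2 lies at chr6:125690419-126040126 on the plus strand (GRCm38). The same gene was the one call in Drd2-gated nuclei, where it stood at 98.96, 83.8, 200.5 and 212 CPM (log2 fold change 1.18 ± 0.160, adjusted p = 0.00456), out of 7088 genes tested (0.0141%). The difference between the 2 classes in this effect was -0.29 ± 0.259 (adjusted p = 0.998). Drd1-gated and Drd2-gated nuclei come from the same animals, so this is not an independent repeat. In excitatory nuclei Ano2 differed by 0.55 ± 0.143 and in other GABAergic nuclei by 1.06 ± 0.310, and neither passed (adjusted p = 0.231 and 0.954). Its levels there were far lower, at 7.77, 6.69, 11.2 and 9.99 CPM in excitatory nuclei and 6.96, 3.46, 10.2 and 11.3 CPM in other GABAergic nuclei.

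Lrrtm4 and Sgcd were also higher with and without sub-cluster 7. Lrrtm4, at chr6:80018877-80810143 on the plus strand, encodes a leucine-rich repeat protein of the postsynaptic membrane and was abundant. Its level was 2761, 3292, 4273 and 4407 CPM, a change of 0.52 ± 0.114 (adjusted p = 0.0408), and both CrT-KO libraries exceeded both controls. Without sub-cluster 7 the change was 0.61 (adjusted p = 0.00263). Sgcd, at chr11:46896253-47988969 on the minus strand, encodes delta-sarcoglycan of the dystrophin complex. It stood at 441, 495, 735 and 679 CPM, again without overlap, with a change of 0.59 ± 0.135 (adjusted p = 0.0482). Without sub-cluster 7 that change was 0.74 (adjusted p = 0.00387). In Drd2-gated nuclei Lrrtm4 differed by 0.57 ± 0.126 and Sgcd by 0.31 ± 0.130, and neither passed there (adjusted p = 0.236 and 0.861). Without sub-cluster 1, the changes of Lrrtm4 and Sgcd in the Drd1 gate were 0.44 and 0.45 (adjusted p = 0.458 and 0.749).

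**Figure D3:**
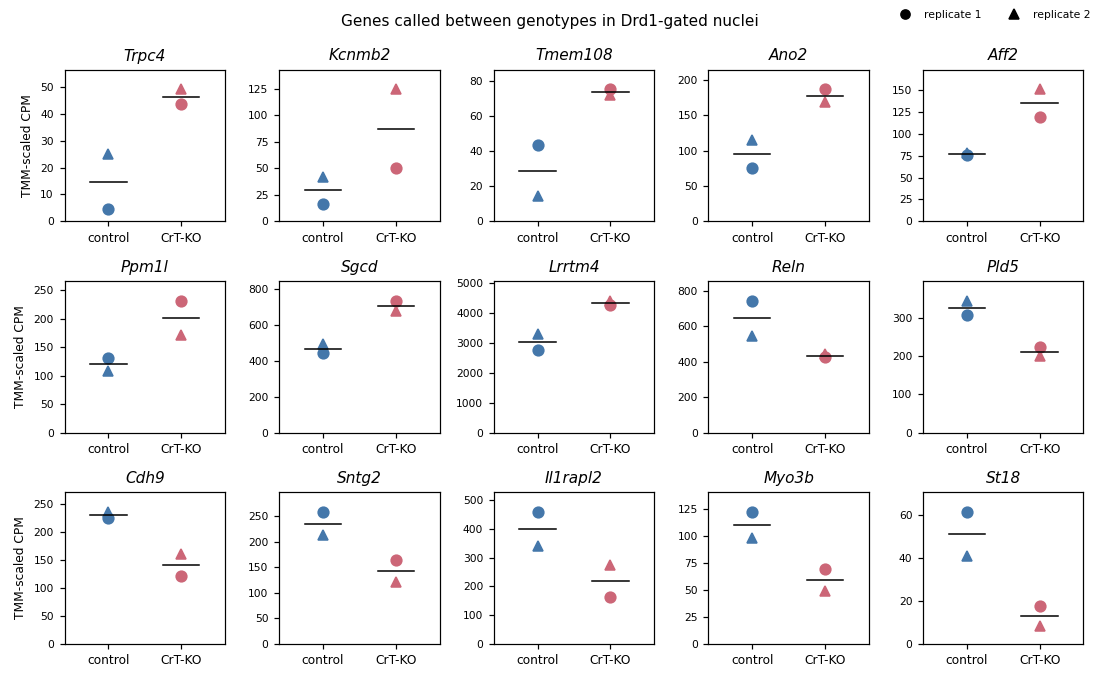
Level of the 15 genes called between genotypes in Drd1-gated nuclei (TMM-scaled CPM, linear axes from 0). Circles are replicate 1, triangles replicate 2 and bars group means. The genotypes do not overlap for any of the 15, as for 33.4% of all genes tested, and the spread within a genotype is widest relative to its mean for genes such as Trpc4 (4.48 and 24.97 CPM in controls).

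Kcnmb2, Tmem108 and Trpc4 had the largest rises of the 15, and most of their UMIs lay in sub-cluster 7. Kcnmb2, an auxiliary subunit of the BK potassium channel, stood at 16.4, 42.1, 50.4 and 124 CPM (log2 fold change 1.56 ± 0.319, adjusted p = 0.0193). Tmem108, a transmembrane protein gene, stood at 43.4, 14.5, 75.0 and 71.7 CPM (1.37 ± 0.307, adjusted p = 0.0408). Trpc4, a cation channel, stood at 4.48, 24.97, 43.6 and 49.0 CPM (1.59 ± 0.390, adjusted p = 0.0929). The controls lay far apart for each of these 3 genes. Sub-cluster 7 held 15.0% of the gate's UMIs, and 88.6% of those of Kcnmb2, 90.3% of Tmem108 and 61.1% of Trpc4. Kcnmb2 and Tmem108 were among the leading genes of sub-cluster 7 and could have shaped it, so their shares there are a description only. A single nucleus of CrT-KO replicate 1 gave 44 of that library's 55 UMIs of Tmem108. The 8 cortical interneuron markers summed to 825 and 891 CPM in controls and 788 and 717 CPM in CrT-KO across the gate, and most of that sum was Adarb2. Without sub-cluster 7 the sum was 518 and 589 CPM in controls and 612 and 625 CPM in CrT-KO, higher in both. Sox6, an interneuron gene outside that list, stood at 58.0, 74.4, 115 and 98.4 CPM across the gate, also higher in both CrT-KO libraries. Without sub-cluster 7, Kcnmb2 and Tmem108 fell below the filter on low counts, and Trpc4 differed by 1.35 (adjusted p = 0.805). The part of interneuron RNA in these 3 calls was not tested.

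Aff2 and Ppm1l completed the higher group. Aff2, a nuclear protein gene of the FMR2 family, stood at 76.2, 77.5, 119 and 151 CPM (0.81 ± 0.205, adjusted p = 0.0942). Sub-cluster 7 held 39.6% of its UMIs, and without it the change was 1.07 with an adjusted p of 0.10005, just above the threshold. Ppm1l, a protein phosphatase gene, stood at 132, 108, 232 and 172 CPM (0.75 ± 0.187, adjusted p = 0.0929), with 25.4% of its UMIs in that sub-cluster. Of the sub-clusters, number 4 had the highest level of both Aff2 (713 CPM) and Ppm1l (585 CPM), against 285 and 274 CPM in sub-cluster 7. Sgcd was also highest in sub-cluster 4, at 1546 CPM. No fit left sub-cluster 4 out, and its part was not tested.

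Among the genes that were lower in CrT-KO, Il1rapl2 had 916 UMIs in the gate. Its level was 459, 340, 164 and 275 CPM, without overlap, and its log2 fold change was -0.85 ± 0.172 (adjusted p = 0.0193). Sub-cluster 1, which held more of the control nuclei, carried 56.9% of its UMIs and 22.7% of all UMIs. Il1rapl2 led that sub-cluster and could have shaped it, so this share is a description only. Within sub-cluster 1 the plain level was 923, 910, 428 and 678 CPM, so it was lower in both CrT-KO libraries there as well. Outside it the level was 273, 154, 107 and 170 CPM, where the genotypes overlapped, and without sub-cluster 1 the change was -0.58 (adjusted p = 0.831). Without sub-cluster 7 it was -0.95 (adjusted p = 0.0029). Il1rapl2 lies at chrX:137570608-138846946 on the plus strand and overlaps Tex13a on the other strand. Use of strand in the counting was not stated, and whether any reads of Tex13a entered the counts of Il1rapl2 was not tested.

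The remaining genes of the lower group, apart from St18, also had more of their UMIs in sub-cluster 1 than its 22.7% of all UMIs. Reln stood at 746, 547, 427 and 442 CPM (-0.57 ± 0.142, adjusted p = 0.0929), and 40.2% of its UMIs lay in sub-cluster 1. Without that sub-cluster its change was -0.38 (adjusted p = 0.856). Pld5, a phospholipase D family member, stood at 306, 344, 222 and 199 CPM (-0.63 ± 0.158, adjusted p = 0.0935), with 36.4% of UMIs there. Cdh9, a cadherin, stood at 226, 237, 121 and 161 CPM (-0.70 ± 0.175, adjusted p = 0.0929). Sntg2, a syntrophin, stood at 259, 213, 165 and 122 CPM (-0.72 ± 0.178, adjusted p = 0.0929), and Myo3b, an unconventional myosin, at 123, 98.6, 69.5 and 49.0 CPM (-0.90 ± 0.226, adjusted p = 0.0929). For Cdh9, Sntg2 and Myo3b, sub-cluster 1 held 33.7%, 28.9% and 36.5% of UMIs. Without sub-cluster 1 the changes of Pld5, Cdh9, Sntg2 and Myo3b were -0.54, -0.56, -0.66 and -0.81, close to those with all members, and none of these or Reln was called. Outside it, Sntg2 stood at 251, 185, 161 and 113 CPM and Pld5 at 251, 275, 197 and 166 CPM. Reln stood there at 519, 434, 386 and 340 CPM, Cdh9 at 197, 188, 109 and 151, and Myo3b at 90.9, 88.2, 58.5 and 43.3. Each of these genes thus remained lower in both CrT-KO libraries. Whether the share of sub-cluster 1 or the level within it moved was not tested.

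St18 had the largest fall of the 15, on few counts. Its level was 61.3, 40.7, 17.7 and 8.36 CPM (log2 fold change -1.97 ± 0.379, adjusted p = 0.0187), without overlap. These rest on 41, 31, 13 and 7 UMIs in 10, 8, 12 and 7 nuclei, so the number of nuclei with a UMI was similar between genotypes. The highest count in 1 nucleus was 15 and 10 in the controls and 2 and 1 in CrT-KO. St18 is also expressed by oligodendrocytes, whose 4 markers summed to 134 and 196 CPM in controls and 130 and 88.0 CPM in CrT-KO. Of these, Mog stood at 9.1, 16.8, 2.7 and 2.4 CPM, lower in both CrT-KO libraries. With the 25 marked doublets removed, St18 no longer passed the filter on low counts. The part of oligodendrocyte RNA was not tested. St18 lies at chr1:6487231-6860940 on the plus strand.

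Removal of sub-clusters, an analysis added after the data were seen, changed the calls more than the fold changes. Without sub-cluster 7, 5 genes were called, which were Ano2, Lrrtm4, Sgcd and Il1rapl2 of the 15, plus Dpp10. Of the genes that lost their call there, St18 differed by -1.68 (adjusted p = 0.114), Pld5 by -0.67 (0.10005), Cdh9 by -0.71 (0.161), Reln by -0.57 (0.161), Sntg2 by -0.66 (0.258), Myo3b by -0.83 (0.258) and Ppm1l by 0.71 (0.294). Without sub-clusters 7, 8 and 9, those same 4 of the 15 were called. Without sub-cluster 1, 2 genes were called, St18 and Rorb, both lower in CrT-KO. With doublets removed, 40 genes were called, including the 14 of the 15 that could be tested. A stricter gate left 104 nuclei and 0 calls, with 158 genes at an unadjusted p under 0.05, and thinning left 0 calls and 233.

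**Figure D4:**
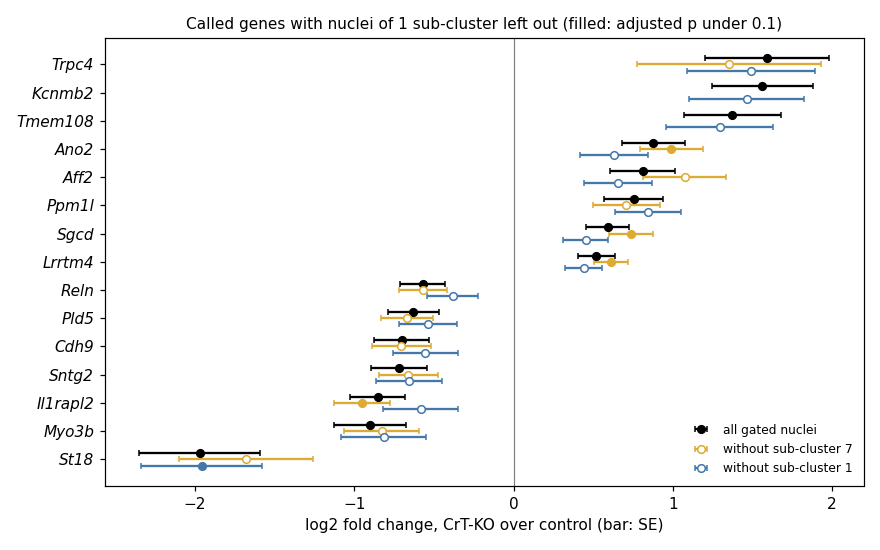
Log2 fold change (CrT-KO over control) with SE of the 15 called genes over all Drd1-gated nuclei, without sub-cluster 7 and without sub-cluster 1. Filled points have an adjusted p under 0.1. Ano2, Lrrtm4, Sgcd and Il1rapl2 stay filled without sub-cluster 7, and of the 15 only St18 does without sub-cluster 1.

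Pathways of this cell class were then read from lists. Of 19 lists, 18 held no called gene, and the exception was the synaptic organizers, in which 1 of 26 tested genes rose (Lrrtm4) and 1 fell (Il1rapl2). Of the 32 genes of dopamine and cAMP signalling, 28 were tested and none was called, with 7 above and 21 below 0 and a median of -0.05. Of 32 potassium channel genes tested, 20 lay above and 12 below 0, with a median of 0.08. Sodium and calcium channels (23 tested) had a median of -0.03, glutamate receptors (21) 0.01, and genes of GABA synthesis, transport and reception (18) 0.03. The striatal transcription factors (12 tested, none called) had a median of 0.07. Over all genes tested, 3223 lay above and 3243 below 0.

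The most abundant genes of these lists were measured with small errors. Pde10a, which breaks down cAMP, stood at 5018, 5048, 4715 and 5013 scaled CPM (-0.05 ± 0.110, adjusted p = 0.997). The metabotropic glutamate receptor Grm5 stood at 4011, 4974, 4204 and 4457 CPM, and the genotypes overlapped (-0.05 ± 0.115, adjusted p = 0.997). The potassium channel partner Kcnip4 stood at 5060, 5906, 6508 and 6505 CPM, above both controls in both CrT-KO libraries but not called (0.25 ± 0.111, adjusted p = 0.812). The calcium pump Atp2b1, which exports calcium at the cost of ATP, stood at 1571, 1372, 1099 and 1134 CPM. It was lower in both CrT-KO libraries and was not called either (-0.40 ± 0.121, adjusted p = 0.303). The clock-related receptor Rora stood at 3471, 3311, 2879 and 2685 CPM (-0.29 ± 0.113, adjusted p = 0.712).

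Genes of energy supply and protein folding were read the same way. Of 7 creatine genes, 2 had enough counts. Gatm, which makes the creatine precursor, had 6, 3, 4 and 1 UMIs, and Gamt, which completes the synthesis, had 1 UMI in all. The brain creatine kinase Ckb stood at 49.3, 51.3, 51.8 and 23.9 CPM, where the genotypes overlapped (-0.44 ± 0.304, adjusted p = 0.957). The mitochondrial kinase Ckmt1 stood at 28.4, 19.7, 13.6 and 13.1 CPM (-0.83 ± 0.432, adjusted p = 0.888), and it overlaps Strc on the other strand. Nuclear genes of oxidative phosphorylation (17 tested) had a median of 0.02 and glycolysis (15 tested) 0.07, with no call in either. Mitochondrially encoded genes had 7 of 8 below 0 and a median of -0.26, and in nuclei such transcripts are carried over from cytoplasm. Chaperones of the endoplasmic reticulum had 6 of 7 below 0 (median -0.33) and other chaperones 10 of 13 (median -0.35), again with no call. Hspa5, the main chaperone of the endoplasmic reticulum, had 18, 18, 7 and 8 UMIs (-1.38 ± 0.459, adjusted p = 0.412). In Drd2-gated nuclei it had 18, 23, 5 and 2 UMIs (-2.30 ± 0.520, adjusted p = 0.236).

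The next comparison set Drd1-gated against Drd2-gated nuclei of the same 4 animals, in a model with the library as a block, since each library gave a sum of both classes. Of 6441 genes tested, 462 differed (7.17%), 255 higher in the Drd1 gate (3.96%) and 207 lower (3.21%). The gates fixed which nuclei entered each side, and their 10 genes were left out. The synaptic leucine-rich repeat gene Lingo2 stood at 2918, 3623, 3296 and 3015 CPM in the Drd1 gate and at 274, 490, 428 and 482 CPM in the Drd2 gate (log2 fold change 2.96 ± 0.0774, adjusted p = 9.33e-22). Cntnap3, a contactin-associated cell adhesion gene, stood at 278, 281, 256 and 189 CPM against 13.1, 14.1, 6.50 and 8.66 (4.56 ± 0.166). The zinc finger gene Zfp521, Impg1 and Sntg2 were higher by 4.10, 3.99 and 3.61. These genes were picked as the largest among called genes that went the same way in 4 of 4 libraries.

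Picked by the same rule, the genes that were lower in the Drd1 gate included the enkephalin precursor. Penk stood at 2.97, 7.83, 12.2 and 1.19 CPM in the Drd1 gate and 162, 137, 92.0 and 121 in the Drd2 gate (-4.37 ± 0.266). The kainate receptor subunit Grik3 stood at 23.8, 9.13, 10.8 and 24.9 against 382, 327, 375 and 349 CPM (-4.37 ± 0.162). The delta opioid receptor Oprd1 differed by -4.21 ± 0.232. Nt5e, the surface enzyme that makes adenosine, and Adk, the kinase that removes it, differed by -2.77 and -2.28. The netrin receptor Unc5d, the lipid phosphatase Fig4 and the calcium-binding protein Necab1 differed by -2.14, -2.10 and -1.97.

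**Figure D5:**
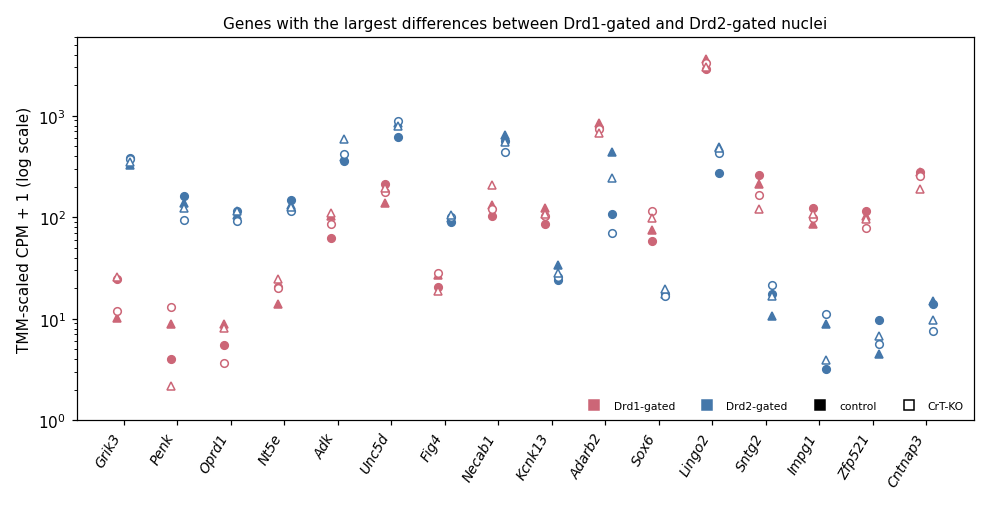
Level (TMM-scaled CPM plus 1, log axis) of 16 genes that differed between Drd1-gated (red) and Drd2-gated (blue) nuclei, with filled points for control and open points for CrT-KO libraries. Lingo2 lies at 2918 to 3623 CPM in the Drd1 gate and 274 to 490 CPM in the Drd2 gate.

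By function, the counts called in each list stand beside the 7.17% called of all genes tested. Among transcription factors, Foxp2 was higher in the Drd1 gate at 914 ± 25.4 CPM (SD over 4 libraries) against 265 ± 20.3, while Foxp1 and Meis2 were lower (-0.39 and -0.28), of 11 tested. In dopamine and cAMP signalling 2 of 28 were lower and none higher, namely the phosphodiesterase Pde4b (-1.18 ± 0.0679) and Gng7 (-0.23), a share (7.14%) like that of all genes. Sodium and calcium channel genes had 1 higher and 8 lower of 23 tested, among them the calcium channel subunits Cacnb2 (-0.71) and Cacna2d2 (-0.74). Glutamate receptor genes had 5 higher and 4 lower of 21, with Grik2 at 0.51 and Grik3 at -4.37. One of the 5, Grik1, turned from 0.61 to -1.84 ± 0.314 without sub-cluster 7 (adjusted p = 5.61e-05). Potassium channel genes had 5 higher and 4 lower of 32, with Kcnb2 at 0.63 and Kcnd3 at -0.93, and here Kcnc2, counted as higher, turned without sub-cluster 7 as given below. Of 18 genes of GABA signalling, Gabrg3 alone was called (-0.39). Synaptic organizers had 8 higher and 5 lower of 26, with Cntnap5c at 1.55 and Lrrtm4 at -0.35. No gene of creatine handling, oxidative phosphorylation, glycolysis or either chaperone list was called.

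Type markers went with the gates. Sfxn1, the 1 Drd1-type marker with enough counts in this comparison, was higher in the Drd1 gate (1.73 ± 0.224). Grik3, Penk and Ptprm of the Drd2-type list were all lower. Some differences rested on sub-cluster 7, which carries interneuron genes. Without it 514 genes were called, 361 of them shared with the 462, of which 356 had the same direction and 5 the opposite one. Sox6, a transcription factor of cortical interneurons, was higher by 2.34 with all members and by 0.25 ± 0.334 without sub-cluster 7 (adjusted p = 0.848), and Cntnap4 went from 1.598 to 0.24 (adjusted p = 0.801). Of the genes that turned, Kcnc2 went from 0.85 to -1.11 ± 0.153 (adjusted p = 1.44e-06) and Tmem108 from 0.97 to -2.00 ± 0.380 (adjusted p = 0.00027). Adarb2 stayed higher, at 1.99 with and 1.53 without that sub-cluster. Of 73 listed or named genes called with all members, 59 kept their call and direction, 3 turned (Kcnc2, Tmem108 and Grik1), 10 lost it and 1, Kcnmb2, could not be tested.

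A test of whether the genotype effect differed between the classes called 1 gene of 6441 (0.0155%), with 265 at an unadjusted p under 0.05. The gene was Erbb4, the neuregulin receptor, at chr1:68032186-69108059 on the minus strand. Its UMIs were 480, 834, 973 and 916 in the Drd1 gate and 369, 638, 338 and 248 in the Drd2 gate, which is 718, 1096, 1326 and 1094 scaled CPM in the Drd1 gate, where the genotypes overlapped, and 401, 557, 311 and 357 in the Drd2 gate, where they did not. The effect was 0.41 ± 0.138 in the Drd1 gate and -0.53 ± 0.154 in the Drd2 gate, neither called (adjusted p = 0.423 and 0.523), and the difference of effects was 0.95 ± 0.160 (adjusted p = 0.0834). Sub-cluster 7 held 48.7% of the Drd1-gated Erbb4 UMIs, and Erbb4 is a gene of cortical interneurons. Without that sub-cluster the difference was 0.55 ± 0.166 (adjusted p = 0.827), and no gene was called. Leaving out control replicate 1 kept the call (0.89), and it was lost without control replicate 2 (1.03, adjusted p = 0.128), CrT-KO replicate 1 (0.71, adjusted p = 0.994) or CrT-KO replicate 2 (1.18, adjusted p = 0.942).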

How the data were processed

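The authors counted UMIs with Cell Ranger 3.1.0 against a pre-mRNA reference of GRCm38 (Ensembl annotation) in which whole gene bodies were treated as exons, and the deposited matrices hold these raw counts for barcodes already called as nuclei. The submitters' notes also name Seurat 3.1.4. No cell type annotation was used here. Gates were applied to raw counts, and UMIs were summed per library. Sums were tested in edgeR 4.0.16 (R 4.3.3) with TMM factors, filterByExpr and quasi-likelihood tests, with Benjamini-Hochberg adjustment over all tested genes and a threshold of 0.1. The fits were also run on simulated data, and no outcome of that run is given here. The rate of false calls in the real data was not tested. The 440 nuclei were clustered in scanpy 1.11.5 (2000 variable genes, 15 components, 15 neighbours, Leiden resolution 0.6). Doublets were scored with Scrublet, 1213 of 35694 nuclei, and kept in the main test. Coordinates come from GENCODE vM21 (21816 of 21933 genes matched). With 1 animal per library, differences between animals and between library preparations cannot be told apart. The quasi-likelihood test shares information on spread across genes. A p-value between genotypes therefore does not rest on the spread of that gene between animals alone.

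The members and lists were chosen with earlier results of these data known. Named genes were called genes without overlap between genotypes (up to 12 each way), up to 8 called genes each way between classes (4 of 4 libraries, at least 50 CPM), creatine genes, type and compartment markers, and of each list the called or 2 most abundant members, of which the text gives part. Alternatives were DESeq2 1.42.0, RLE factors, no count filter, a replicate block, each library left out, a stricter gate, a thinned gate and doublet removal, and exclusion of sub-clusters was added after the data were seen.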

Additional observations from a re-analysis of the deposited data

Results flagged for a closer look

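The genotype effect on Erbb4 differed between Drd1-gated and Drd2-gated nuclei by 0.95 ± 0.160 on the log2 scale (edgeR's quasi-likelihood test of the interaction, adjusted p = 0.0834), which singled it out. The effect was 0.41 in the Drd1 gate and -0.53 in the Drd2 gate, with neither called on its own. Without sub-cluster 7, which held 48.7% of the Drd1-gated UMIs of Erbb4 and 17 of the 25 marked doublets, the difference was 0.55 (adjusted p = 0.827). The part of interneuron RNA was not tested.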

How the results depend on the processing

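The genotype comparison in Drd1-gated nuclei called 15 genes, and 7 at a threshold of 0.05. It called 38 with the replicate block (22 higher, 16 lower, all 15 among them), 40 with doublets removed, 0 with DESeq2, 0 with the stricter gate, 0 with the thinned gate, 5 without sub-cluster 7, 4 without sub-clusters 7, 8 and 9, and 2 without sub-cluster 1. Leaving out 1 library gave 8 to 25. Scaling by RLE factors gave 15 and no count filter 17. Over these settings the named genes kept their direction, with 88 values on the same side of the threshold and 109 that missed it. The Drd2-gated comparison called 1 gene, and 69 with the replicate block, 19 with no count filter, 5 with doublets removed and 4 to 54 with 1 library left out, and Ano2 was called in each of the 8 alternatives tested. The difference of effects called 1 gene, and 0 with RLE factors, 4 with no count filter, 0 with doublets removed, 0 under each of the 3 sub-cluster exclusions and 0 to 4 with 1 library left out. Comparing the classes gave 462 calls, 317 to 464 with 1 library left out and 514 without sub-cluster 7, where Sox6 lost its call and Kcnc2, Tmem108 and Grik1 turned to -1.11, -2.00 and -1.84 (-1.30, -1.85 and -1.94 without sub-clusters 7, 8 and 9). The genotype difference in the gate's share of nuclei turned from 0.00646 to -0.190 percentage points on thinned nuclei and to -0.0190 with the stricter gate, and ran from -0.0666 to 0.0795 with 1 library left out. The causes of these shifts were not tested. Replicate numbers in the labels mark no shared litter or day, and same-numbered libraries correlated at 0.0797 in their deviations (equal for both pairs by construction), so the numbers were not taken as pairs. Depth limits scarce genes such as Slc6a8, Gatm and Hspa5, and the 104 nuclei of the stricter gate left 2945 genes to test.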
